A study of Mus musculus with 24 samples.

Results

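Marker genes of patrolling monocytes were followed through monocyte subsets of mouse peripheral blood (PB), namely *Ace*, *Treml4*, *Eno3*, *Pglyrp1*, *Spn* and *Adgre4*. The 6 genes were chosen by name and found among the 53715 genes of the deposited table, and all 6 were among the 11230 genes tested, a set limited to genes whose normalised read count reached 50 in 1 or more of the 24 libraries. The libraries formed 6 groups of 4. Ly6Chi cells were sorted from wt and N2ΔMy mice after Sham treatment and from wt and N2ΔMy mice after imiquimod (IMQ) treatment, and Ly6Clo cells were sorted from both genotypes after IMQ treatment, so that no Ly6Clo group without IMQ was analysed here. All mice were 8 to 10 weeks old, of C57BL/6 background, and carried one GFP allele of *Cx3cr1*, the fractalkine receptor gene, which labels monocytes. Both gates took lineage-negative CD11b+ GFP+ CD115+ MHC-II- cells, and the Ly6Chi gate also excluded CD43+ cells. N2ΔMy mice also carried floxed *Notch2* alleles and Cre recombinase expressed from the *Lyz2* locus, which is active in myeloid cells other than monocytes as well. IMQ mice received 50 mg of Aldara per day on the skin, a cream with 5% imiquimod, an agonist of the endosomal RNA sensor TLR7. Per the labels Sham mice received Vaseline cream, while the study's methods also call the controls of the sort untreated, and cells of IMQ mice were sorted on day 5. Whether a library came from 1 animal or from several was not given in the sources used here, so p-values measure the spread between libraries.

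Blood monocytes of mice are divided by surface Ly6C. Ly6Chi, or classical, monocytes leave the blood at sites of inflammation, and in the steady state some of them convert into Ly6Clo monocytes, which crawl along the vessel wall and survey the endothelium, hence the name patrolling. Notch2, a receptor on the monocyte surface, is known to promote this change, and Ly6Clo monocytes need the nuclear receptor Nr4a1 to survive. The members have different roles. *Ace* encodes angiotensin-converting enzyme, a peptidase of the cell surface, and *Eno3* encodes beta-enolase, the muscle form of a glycolytic enzyme. *Treml4* encodes a TREM-like receptor that binds dying cells and takes part in TLR7 signaling, and *Pglyrp1* encodes a secreted peptidoglycan recognition protein that is best known from neutrophil granules. *Spn* encodes CD43, a sialomucin, and *Adgre4* encodes an adhesion receptor of the F4/80 family.

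The question was how far these genes separated the subsets, and how their levels moved with loss of Notch2 and with TLR7 stimulation. Values are normalised read counts, that is reads counted on a gene and scaled to make libraries comparable. Log2 fold changes are differences of the group means of log2(value + 1), tested with limma over all 11230 genes, and genes with p no higher than 0.05 after Benjamini-Hochberg adjustment and a change of 0.6 or more in either direction were called. Inferred reads lay between 9521379 and 19759572 per library. *Notch2* itself was lower in every N2ΔMy library than in every wt library of the same subset and treatment, at 8603 to 10165 against 13799 to 16214 in Ly6Chi Sham cells, 7240 to 8311 against 12656 to 14982 in Ly6Chi IMQ cells, and 9368 to 11518 against 16037 to 20005 in Ly6Clo cells. Reads were counted over the whole gene, so these levels do not give the share of deleted alleles. Replicates 1 and 2 of every group belong to one series of library numbers and replicates 3 and 4 to another, and libraries with the same replicate number deviated from their group means together. Results are therefore also given with the replicate number as a block where this changes a call.

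In wt mice after IMQ treatment, each of the 6 genes was higher in every Ly6Clo library than in every Ly6Chi library. *Ace* was at 35656, 33443, 33455 and 39576 in replicates 1 to 4 of Ly6Clo cells and at 3687, 6524, 8370 and 8150 in Ly6Chi cells. *Eno3* was at 6229, 6473, 7156 and 7481 against 203, 374, 606 and 923. *Adgre4* was at 9089, 9903, 7502 and 10002 against 1544, 1713, 1725 and 2179. The widest separation by fold was that of *Eno3*, whose mean was 13-fold that of Ly6Chi cells, and the narrowest that of *Spn*, at 3.8-fold. All 6 genes were called higher, against 11.9% of all genes tested, and non-overlapping groups with higher Ly6Clo values occurred in 18.3% of all genes. The log2 fold changes were 3.90 ± 0.36 (SE) for *Eno3* (adjusted p = 1.5e-05), 2.75 ± 0.34 for *Treml4* (adjusted p = 1.1e-04), 2.48 ± 0.22 for *Ace* (adjusted p = 1.3e-05), 2.35 ± 0.13 for *Adgre4* (adjusted p = 6.2e-07) and 2.13 ± 0.27 for *Pglyrp1* (adjusted p = 1.4e-04). Ly6Chi cells had been gated as negative for CD43, the product of *Spn*, so the difference of *Spn*, 1.95 on the log2 scale, is given as a description. The part of the gate in it was not tested. The genes had been chosen as markers of the Ly6Clo subset, so these counts describe them and test nothing about that choice.

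The same held in N2ΔMy mice, where again 6 of 6 genes were called higher in Ly6Clo than in Ly6Chi cells, against 9.01% of all genes, and 6 of 6 did not overlap, against 14.8%. The log2 fold changes were 4.23 ± 0.32 for *Eno3*, 2.80 ± 0.25 for *Treml4*, 2.63 ± 0.18 for *Adgre4*, 2.57 ± 0.21 for *Ace*, 1.86 ± 0.14 for *Spn* and 1.59 ± 0.23 for *Pglyrp1*. Thus N2ΔMy Ly6Clo cells still carried these markers at several times the level of N2ΔMy Ly6Chi cells. Scaled to exon length, the genes differed widely in level. In wt Ly6Clo cells *Spn* and *Ace* stood at 6784 ± 300.7 and 6721 ± 546.5 normalised reads per kb (SD, n = 4), which do not differ beyond their spread, and *Eno3*, *Adgre4*, *Pglyrp1* and *Treml4* followed at 3930 ± 335.1, 2614 ± 331.2, 1292 ± 308.3 and 906.9 ± 419.8.

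**Figure D1:**
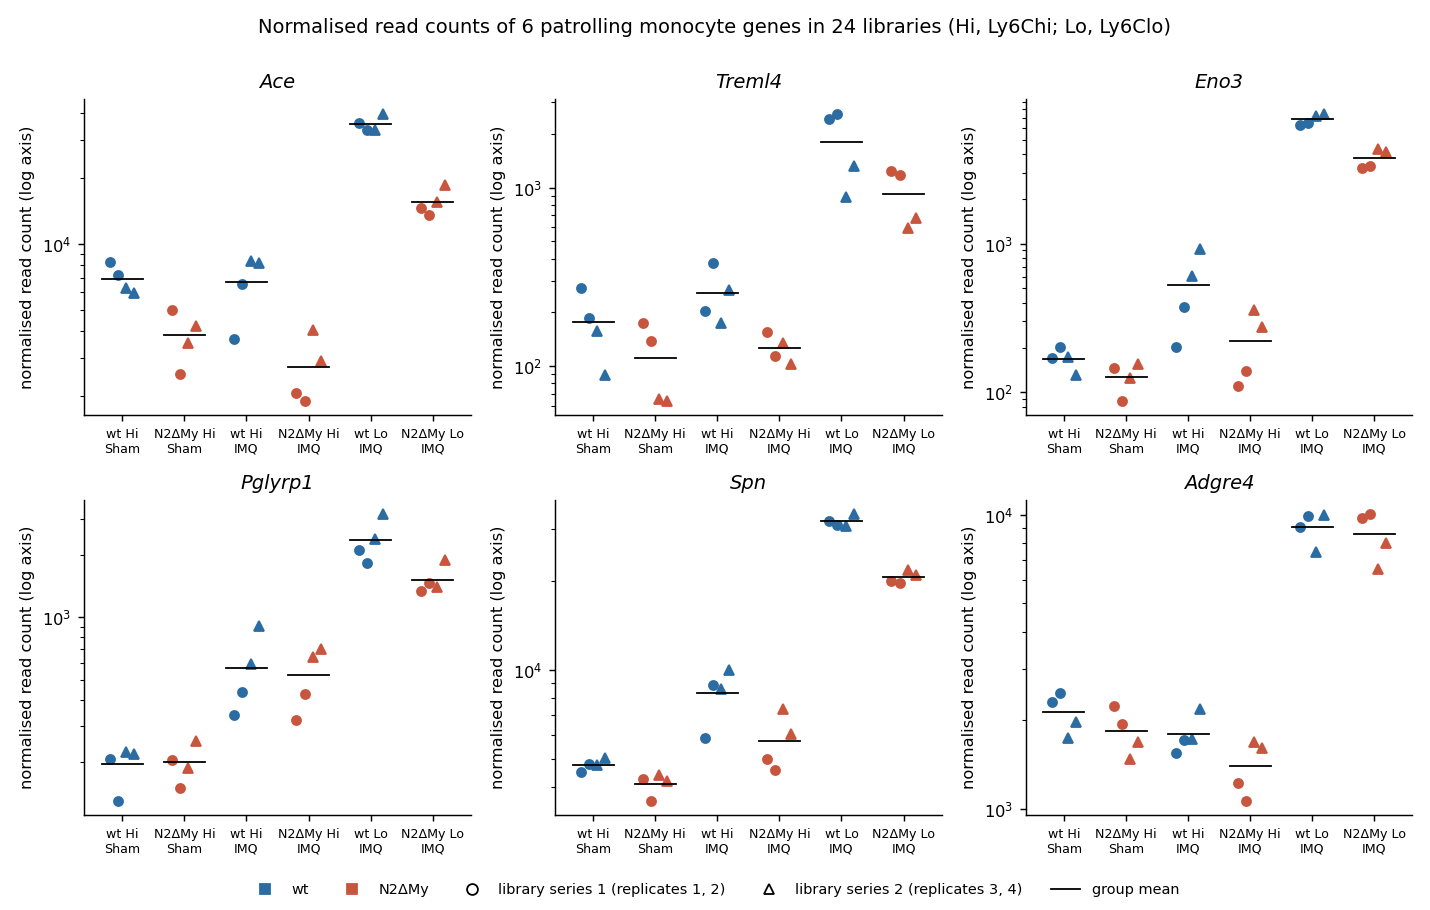
Normalised read counts (y axis, log scale) of the 6 genes in the 24 libraries, by group (x axis), with points for libraries and bars for group means. Both Ly6Clo groups lie above all Ly6Chi libraries for each gene, and circles and triangles, the 2 library series, separate for *Treml4* in Ly6Clo cells.

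Over the 6 groups, the order of the means began with wt Ly6Clo and N2ΔMy Ly6Clo cells for every gene. These first 2 groups did not overlap for *Ace*, *Eno3* and *Spn*, and overlapped for *Treml4*, *Pglyrp1* and *Adgre4*. Below them, the neighbours in the order of *Ace*, *Treml4*, *Eno3* and *Adgre4* all overlapped. The 2 exceptions were *Pglyrp1*, for which both IMQ groups of Ly6Chi cells lay above both Sham groups, and *Spn*, for which wt Sham cells, at 4512 to 5019, lay above N2ΔMy Sham cells, at 3594 to 4391.

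In GRCm38, *Ace* (ENSMUSG00000020681) spans chr11:105967945-105989964 and *Eno3* (ENSMUSG00000060600) chr11:70657202-70662513, both on the plus strand. *Treml4* (ENSMUSG00000051682) spans chr17:48264295-48275360 and *Adgre4* (ENSMUSG00000032915) chr17:55749984-55853662, also on the plus strand. *Pglyrp1* (ENSMUSG00000030413) spans chr7:18871331-18890459 on the plus strand and *Spn* (ENSMUSG00000051457) chr7:127132232-127137823 on the minus strand. The stretch of DNA before the start of a gene is where many of its regulators bind. The 250 bases before the RefSeq start (GRCm38.p6) are shown for the 3 genes that were called lower in N2ΔMy Ly6Clo cells and for *Adgre4*, which was not, each 5′ to 3′ on the strand of the gene. They are *Ace* at chr11:105967698-105967947 (plus strand), *Eno3* at chr11:70656926-70657175 (plus strand), *Spn* at chr7:127137824-127138073 (minus strand) and *Adgre4* at chr17:55749734-55749983 (plus strand). Capitals mark matches, on either strand, to letters known from sites of myeloid regulators.
Ace: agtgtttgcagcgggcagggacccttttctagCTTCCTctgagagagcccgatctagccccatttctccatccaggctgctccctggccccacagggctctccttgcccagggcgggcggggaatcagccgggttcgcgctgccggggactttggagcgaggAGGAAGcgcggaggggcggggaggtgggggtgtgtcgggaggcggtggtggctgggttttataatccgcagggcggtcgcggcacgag
Eno3: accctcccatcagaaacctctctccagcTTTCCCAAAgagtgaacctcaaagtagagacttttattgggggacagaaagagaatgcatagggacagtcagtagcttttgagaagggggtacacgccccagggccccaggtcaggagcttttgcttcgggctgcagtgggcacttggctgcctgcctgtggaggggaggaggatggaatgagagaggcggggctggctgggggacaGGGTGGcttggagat
Spn: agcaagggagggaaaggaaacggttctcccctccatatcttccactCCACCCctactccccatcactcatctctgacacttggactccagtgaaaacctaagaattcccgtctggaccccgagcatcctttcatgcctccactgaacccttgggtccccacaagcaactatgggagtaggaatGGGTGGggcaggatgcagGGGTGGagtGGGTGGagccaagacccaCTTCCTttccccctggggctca
Adgre4: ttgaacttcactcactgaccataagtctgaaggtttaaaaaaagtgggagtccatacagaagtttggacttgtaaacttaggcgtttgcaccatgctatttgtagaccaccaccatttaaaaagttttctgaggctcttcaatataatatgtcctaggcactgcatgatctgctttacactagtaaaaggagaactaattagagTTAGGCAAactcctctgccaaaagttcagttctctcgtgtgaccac
The letters searched were AAAGGTCA (Nr4a), TTGCGCAA and TTNNGNAA (C/EBP), CCACCC (Klf), TGGGAA (Rbpj, the DNA-binding partner of Notch), AGGAAG (ETS factors of the PU.1 type) and TGANTCA (AP-1). Of all 32851 such stretches, they occurred in 1.34%, 0.164%, 36.85%, 28.1%, 21.6%, 29.5% and 6.75%. The *Spn* stretch held 4 Klf matches and 1 ETS match, and the *Ace* stretch 2 ETS matches. The *Eno3* stretch held 1 Klf match and 1 Rbpj match, the latter inside 2 overlapping matches to TTNNGNAA, and the *Adgre4* stretch held 1 match to TTNNGNAA. *Treml4* held 1 match each for C/EBP, Rbpj and ETS, and *Pglyrp1* held 3 for ETS. No member had a match for Nr4a or AP-1 in these windows. *Ace* has a second RefSeq start, with 1 Klf match, which the counts per gene cannot tell from the first. GC content was 67.2% for *Ace* and 39.6% for *Adgre4*, with the other members between 55.6% and 57.2%, against a median of 52.4% over all stretches.

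In Ly6Clo cells after IMQ treatment, the level of 5 of the 6 genes was lower in N2ΔMy than in wt cells in all 4 pairs of libraries with the same number, and *Adgre4* was the exception. *Ace* was at 14664, 13531, 15648 and 18623 in N2ΔMy replicates 1 to 4 against 35656, 33443, 33455 and 39576 in wt. *Eno3* was at 3199, 3322, 4332 and 4131 against 6229, 6473, 7156 and 7481, and *Spn* was at 20023, 19627, 21774 and 20938 against 31965, 30826, 30575 and 33664. For these 3 genes no N2ΔMy library reached the lowest wt library. *Ace* fell by 1.19 ± 0.12 on the log2 scale (SE, adjusted p = 3.3e-04), *Eno3* fell by 0.88 ± 0.12 (adjusted p = 0.00188) and *Spn* fell by 0.63 ± 0.09 (adjusted p = 0.00322). These 3 of 6 calls compare with 1.67% of all genes called lower, and the 3 of 6 without overlap compare with 6.17%. A lower value in all 4 same-numbered pairs occurred in 17.8% of all genes. *Spn* was not part of the sort of Ly6Clo cells, and its change lay close to the threshold: without wt replicate 4 it was -0.60, which rounds to the required 0.6 but lies under it (adjusted p = 0.0131), and in the second series alone its adjusted p was 0.0849. In 1 fit of all 24 libraries the adjusted p of *Eno3* was 0.116.

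*Treml4* and *Pglyrp1* were lower to a similar degree but varied more between libraries. *Treml4* was at 1245, 1171, 590 and 672 in N2ΔMy against 2439, 2599, 890 and 1316 in wt cells, so that libraries of the first series were about as high in N2ΔMy as those of the second series in wt. *Pglyrp1* was at 1341, 1458, 1406 and 1884 against 2126, 1835, 2379 and 3155, with a single N2ΔMy library above the lowest wt library. Neither was called without the block, at log2 fold changes of -0.92 ± 0.36 (adjusted p = 0.18) and -0.62 ± 0.17 (adjusted p = 0.0525). With the replicate number as a block both were called lower, *Treml4* at an adjusted p of 1.0e-04 and *Pglyrp1* at 5.1e-04, which made 5 of 6 genes, against 3.45% of all genes. The *Treml4* change was -1.06 within the first series and -0.78 within the second, and *Pglyrp1* was also called without N2ΔMy replicate 4 (adjusted p = 0.0341) or without wt replicate 2 (adjusted p = 0.0353). *Adgre4* was at 9753, 10081, 6550 and 8054 in N2ΔMy against 9089, 9903, 7502 and 10002 in wt cells. Its groups overlapped widely, and its log2 fold change was -0.10, with a 95% confidence interval of -0.43 to 0.24 (adjusted p = 0.805, or 0.467 with the block).

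**Figure D2:**
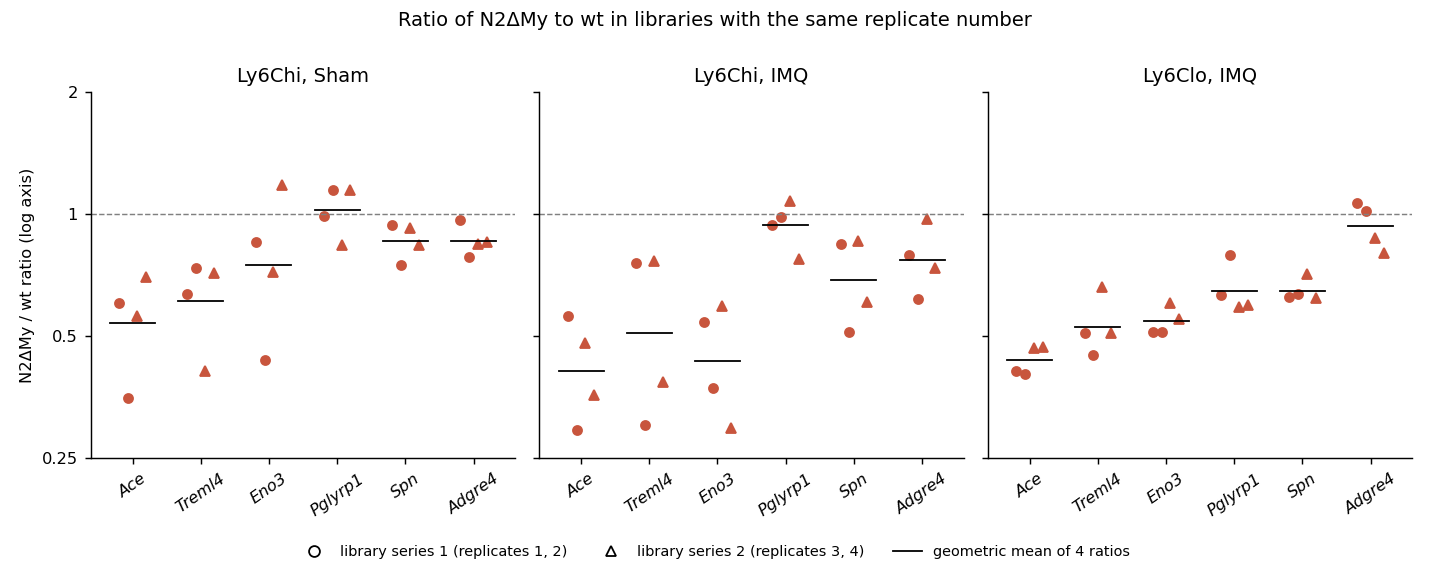
Ratio of N2ΔMy to wt normalised read counts (y axis, log scale) in the 4 pairs of libraries with the same replicate number, for each gene (x axis) in 3 settings, with bars for geometric means and a dashed line at a ratio of 1. In Ly6Clo cells the ratio of *Ace* is the lowest of the 6 genes within each pair, between 0.405 and 0.471, and those of *Adgre4* lie on both sides of 1.

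These are bulk libraries, in which fewer cells of a type and less RNA per cell cannot be told apart. Markers of classical monocytes moved with the genotype in the same libraries. The summed level of 8 such genes (*Ly6c2*, *Ccr2*, *Vcan*, *F13a1*, *Chil3*, *Mmp8*, *Fn1* and *Hp*) lay between 41644 and 76746 in N2ΔMy Ly6Clo libraries and between 6973 and 11485 in wt Ly6Clo libraries, and 6 of the 8 were called higher. None of them was at 0 in all 4 libraries of a group. *Ly6c2*, the gene behind the sorting marker, was at 51, 46, 382 and 58 in N2ΔMy and 19, 12, 92 and 38 in wt Ly6Clo cells, so that replicate 3 was the highest in both, and at 2615 to 6233 in wt Ly6Chi IMQ cells. Of 9 macrophage genes, 8 were tested and 7 were called higher, and the sum of the 9 was 11371 to 14988 against 4695 to 6718. *Adgre1*, the tested gene that was not called (0.58, adjusted p = 0.126), made up most of the wt sum and is part of both. The complement genes *C1qa*, *C1qb* and *C1qc* were at means of 249.8, 1023 and 423.8 in N2ΔMy against 14.25, 71.75 and 23.75 in wt cells. Of 7 dendritic cell genes, 5 were tested, 0 were called by limma and 2 with the block, both higher, and their sum was 213 to 1695 in N2ΔMy against 89 to 568 in wt cells. N2ΔMy replicate 3 stood out in this list, with *Flt3* at 850 and *Zbtb46* at 460, and without it 3 of the 6 members were likewise called lower. The part of these cells in the lower levels of the 6 genes was not tested.

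The size of the loss was set on the scale of the wt subsets, with the mean of wt Ly6Chi IMQ cells at 0% and that of wt Ly6Clo cells at 100%. By its mean, *Ace* kept the smallest part of the wt difference, 31% ± 7.57 (SD, n = 4), with single libraries at 27.7%, 23.7%, 31.1% and 41.4%. *Treml4* kept 42.7% ± 21.6, *Eno3* 51% ± 9.02, *Spn* 52.3% ± 4.11 and *Pglyrp1* 52.8% ± 13.6, which do not differ from each other beyond their spread. *Treml4* does not differ from *Ace* beyond its spread either, since it lay below *Ace* in replicates 3 and 4, at 21.5% and 26.8%. *Adgre4* kept 93% ± 22.3. With each library series set on its own wt means, the values were 30.5% and 31.4% for *Ace*, 41.2% and 46.6% for *Treml4*, 49% and 52.9% for *Eno3*, 51.8% and 52.8% for *Spn*, 63.5% and 44.3% for *Pglyrp1*, and 105.4% and 78.7% for *Adgre4*, so the spread of *Treml4* between libraries was mostly one between the series. Over the 1331 genes called higher in wt Ly6Clo than in wt Ly6Chi cells, the median position was 57.8%, with quartiles at 40.5% and 78.4%. Of these genes, 14.7% lay below *Ace*, 27.0% below *Treml4*, 39.2% below *Eno3*, 41.2% below *Spn*, 42.7% below *Pglyrp1* and 84.6% below *Adgre4*. The 1331 genes were called with the same wt libraries that set 0% and 100%. This can shift their positions, so the comparison is given as a description. On the log2 scale the positions were higher, at 51.9% for *Ace*, 66.6% for *Treml4* and 77.6% for *Eno3*, with *Ace* again the lowest. The summed classical markers, of which *Fn1* was the largest part in Ly6Chi and in N2ΔMy Ly6Clo cells, had a position of 77.6% when computed in the same way, with single genes between 59.6% (*Ccr2*) and 98.3% (*Mmp8*).

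**Figure D3:**
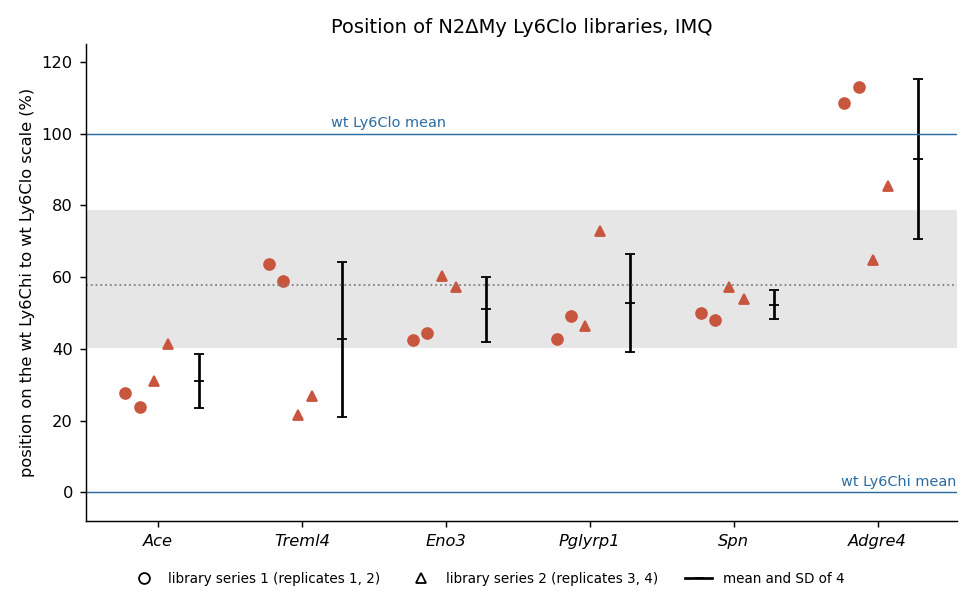
Position of each N2ΔMy Ly6Clo library (y axis, percent) between the mean of wt Ly6Chi IMQ cells, at 0%, and that of wt Ly6Clo IMQ cells, at 100%, for each gene (x axis), with mean and SD beside the points. The dotted line and grey band give the median of 57.8% and the quartiles over 1331 genes called higher in these same wt Ly6Clo libraries. The mean of *Ace* lies below the band while that of *Adgre4* lies above it. *Ace* in replicate 4 (41.4%) and *Adgre4* in replicate 3 (64.9%) lie inside the band.

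In Ly6Chi cells, which hold far less of these transcripts, the difference between genotypes had the same sign for all 6 genes after IMQ treatment, but no member was called without the block, and 1 gene of all those tested was called lower, or 0.0089%. At an unadjusted p under 0.05, 5 of the 6 genes differed, and 679 of all genes. *Ace* was at 2067, 1915, 4040 and 2923 in N2ΔMy against 3687, 6524, 8370 and 8150 in wt cells, lower in each pair of libraries with the same number. *Eno3* was at 110, 140, 360 and 274 against 203, 374, 606 and 923. Both groups were spread by the library series, and both genes overlapped between genotypes. With the replicate number as a block, *Ace* fell by 1.28 on the log2 scale (adjusted p = 9.0e-04) and *Eno3* fell by 1.20 (adjusted p = 0.00562), that is 2 of 6 genes against 0.267% of all genes. *Ace* was also called in 1 fit of all 24 libraries (adjusted p = 0.0168). *Treml4* was the one gene without overlap, against 1.71% of all genes, at 102 to 155 in N2ΔMy and 175 to 377 in wt cells, and it was not called (-0.97, adjusted p = 0.0682 with the block). *Spn* was at -0.54 (adjusted p = 0.0496 with the block, under the required fold change) and *Adgre4* at -0.37 (adjusted p = 0.809, or 0.0912 with the block). *Pglyrp1* was at -0.09, with an interval of -0.82 to 0.64. In all, 5 of 6 genes were lower in 4 of 4 pairs, against 9.58% of all genes. The same sum of classical markers was 242954 to 298909 in N2ΔMy and 175071 to 226855 in wt Ly6Chi cells, again mostly from *Fn1*, and 0 of the 8 genes were called by limma with or without the block. The sum of the 9 macrophage genes was 4749 to 6317 in N2ΔMy and 3001 to 4043 in wt cells. Of the 8 tested, 6 had changes above 0 and 2 below. None was called without the block and 1 with it, *Maf* (0.84, adjusted p = 9.3e-04). The part of these genes' cells in the values of the 6 members was not tested.

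After Sham treatment no member was called in Ly6Chi cells by limma, with or without the block, against 0.0089% and 0.0178% of all genes called lower. *Ace* was at 5001, 2539, 3519 and 4191 in N2ΔMy against 8285, 7196, 6269 and 5974 in wt cells. These groups did not overlap, and neither did those of *Spn*, which is 2 of 6 genes against 1.73% of all genes and includes both genes with an unadjusted p under 0.05. The log2 fold change of *Ace* was -0.89, with an interval of -1.32 to -0.47, and its adjusted p was 0.699, or 0.0891 with the block. Values lower in all 4 pairs were found for *Ace*, *Treml4*, *Spn* and *Adgre4*, against 9.56% of all genes. *Pglyrp1* was at 150 to 254 in N2ΔMy and 130 to 224 in wt cells.

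Whether the effect of the genotype differed between the subsets, or between the treatments, was tested directly. No member was called in the interaction of genotype and subset, against 1.03% of all genes (2.41% with the block), and none had an unadjusted p under 0.05 without the block. The widest difference was that of *Pglyrp1*, whose genotype effect was lower in Ly6Clo cells by 0.54, with an interval from -1.36 to 0.29, or from -0.95 to -0.12 with the block (adjusted p = 0.21). For *Ace* the interaction was 0.09, with an interval from -0.63 to 0.81. The loss of *Ace* was thus of similar size in both subsets on the log2 scale, at -1.19 and -1.28, but the interval leaves room for a difference of up to 0.81. No gene was called in the interaction of genotype and treatment, that is 0.0%, with or without the block, while 177 of all genes and none of the members had an unadjusted p under 0.05. For *Eno3* this interaction was -0.79, with an interval from -2.01 to 0.43.

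IMQ treatment raised 3 of the 6 genes in wt Ly6Chi cells, against 4.43% of all genes, and 1 of 6 in N2ΔMy Ly6Chi cells, against 4.15%. *Pglyrp1* was the member called in both genotypes. It was at 339, 435, 597 and 907 after IMQ against 208, 130, 224 and 220 after Sham treatment in wt cells (1.47 ± 0.29, adjusted p = 0.00606), and at 320, 428, 647 and 704 against 206, 150, 188 and 254 in N2ΔMy cells (1.35 ± 0.26, adjusted p = 0.00661). No IMQ library overlapped with a Sham library of its genotype. Without the filter on low values the adjusted p was 0.0757 in wt and 0.0694 in N2ΔMy cells. *Spn* rose in wt cells, where it was at 5886, 8896, 8608 and 10007 against 4512, 4786, 4742 and 5019 (0.78 ± 0.14, adjusted p = 0.0041), with an adjusted p of 0.0527 without the filter and 0.0725 in the first series alone. In N2ΔMy cells *Spn* was at 4984, 4563, 7388 and 6075 against 4256, 3594, 4391 and 4211 (0.46 ± 0.14, adjusted p = 0.0604, or 0.0081 with the block), under the required fold change. Ly6Chi cells were gated as negative for CD43, so this describes *Spn* RNA within that gate. In all, 3 of 6 genes did not overlap in wt cells, against 9.93% of all genes, and 2 of 6 in N2ΔMy cells, against 9.87%.

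*Eno3* rose in wt cells by 1.44 ± 0.38 (adjusted p = 0.0265), and this value depended on the library series. It was at 203 and 374 after IMQ against 170 and 201 after Sham in the first series, and at 606 and 923 against 172 and 130 in the second, with log2 fold changes of 0.57 and 2.31. The call was lost without wt IMQ replicate 3 or 4, and without wt Sham replicate 1, 3 or 4, with adjusted p from 0.0557 to 0.071. In N2ΔMy cells it was at 0.66 ± 0.36 (adjusted p = 0.285). *Treml4* was at 0.57 in wt and 0.31 in N2ΔMy cells (adjusted p = 0.286 and 0.605). The log2 fold changes of *Ace* and *Adgre4* were -0.11 and -0.25 in wt and -0.50 and -0.40 in N2ΔMy cells, and none of these was called. In wt cells both were lower after IMQ in the first series, at -0.65 and -0.56, and not in the second, at 0.43 and 0.06. In N2ΔMy cells *Adgre4* was called lower in the first series alone, at -0.87 (adjusted p = 0.00651), and was at 0.06 in the second. Since *Pglyrp1* is best known from neutrophils, 12 neutrophil genes were examined. Their sum was 5391 to 8764 after IMQ and 5533 to 6290 after Sham in wt Ly6Chi cells, and 5833 to 9054 against 4838 to 5404 in N2ΔMy cells. After Sham most of this sum was *Csf3r*, a receptor gene that was lower after IMQ, at a log2 fold change of -0.45 in wt (adjusted p = 0.00713) and -0.29 in N2ΔMy cells (adjusted p = 0.0645). Of the 5 tested, *S100a8* and *S100a9* rose with IMQ in wt Ly6Chi cells, and both also rose in N2ΔMy cells, together with *Mmp9* (2.98, adjusted p = 0.0255). In wt cells *S100a8* was at 561, 545, 930 and 3257 and *S100a9* at 685, 617, 499 and 1651 after IMQ, with replicate 4 the highest for both, against at most 11 and 0 after Sham. Genes of granule proteins were low, with *Elane* at 15 to 27 after IMQ against 0 to 3 in wt cells, *Mpo* at 9 to 36 against 4 to 9, *Ngp* at 1 to 8 against 0 and *Ltf* at 2 to 7 against 0. *Ly6g*, which encodes a surface marker of neutrophils, was at 0 in every IMQ library of Ly6Chi cells, and *Camp* was at 0 in wt and at most 8 in N2ΔMy cells. The lineage antibodies of the study include Ly6G, and how complete this exclusion was in the sort was not tested. The part of these genes in the rise of *Pglyrp1* was not tested. Dendritic cell genes moved the other way, with 3 of the 5 tested called lower in each genotype and sums of 272 to 535 after IMQ against 823 to 1486 after Sham in wt cells, and 299 to 412 against 973 to 1692 in N2ΔMy cells. Of the 8 macrophage genes tested, 0 were called higher and 1 lower in wt cells, and 2 higher (*Mertk* and *Adgre1*) and 1 lower in N2ΔMy cells, with medians of 0.49 and 0.72. The gene called lower was *Siglec1* in both, at log2 fold changes of -3.56 and -3.62. Of the 8 classical monocyte genes, 4 were called higher with IMQ in each genotype (*Vcan*, *Chil3*, *Mmp8* and *Hp*) and 0 lower. In each genotype 5 of their changes were above 0 and 3 below. The part of these cells in the values of the 6 genes was not tested.

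**Figure D4:**
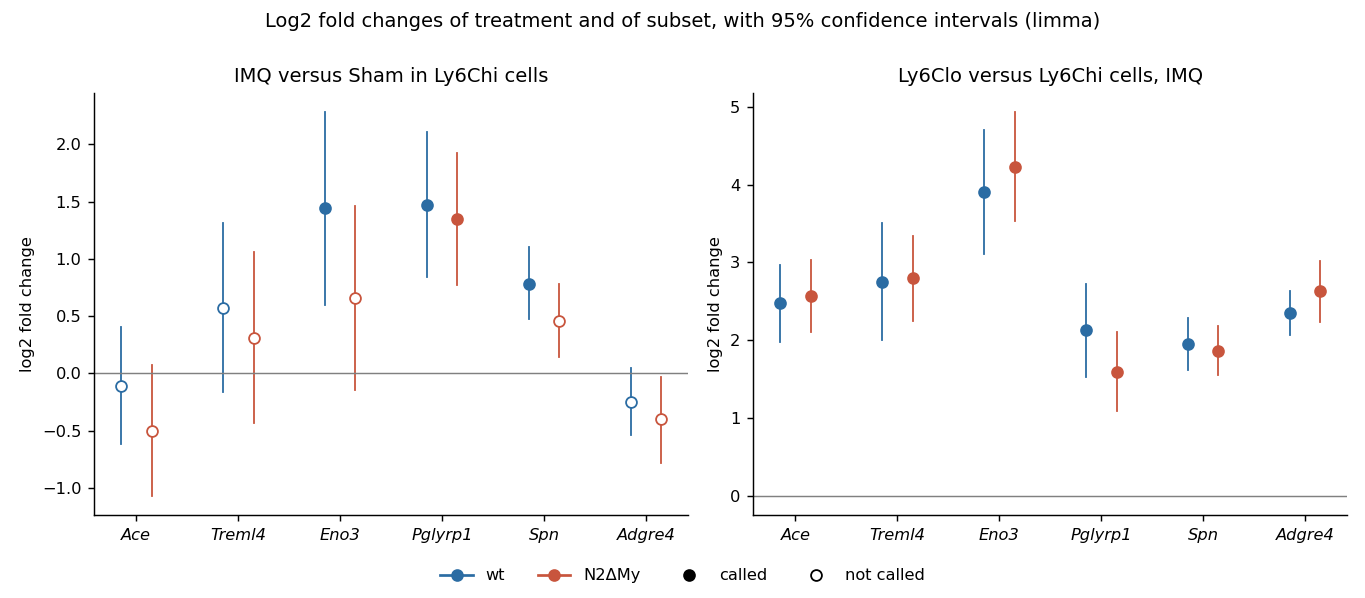
Log2 fold change (y axis) of each gene (x axis) for IMQ against Sham treatment in Ly6Chi cells and for Ly6Clo against Ly6Chi cells, in wt and N2ΔMy mice, with 95% confidence intervals, filled where called. *Pglyrp1* is called with IMQ in both genotypes, while all 6 genes are called between subsets.

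The 6 genes varied together over the 24 libraries, with Pearson r of log2 values between 0.785 (*Ace* and *Pglyrp1*) and 0.992 (*Eno3* and *Spn*). This describes mainly the distance between the subsets, which all pairs share. Once the group means were removed, *Ace*, *Eno3*, *Spn* and *Pglyrp1* still varied together, with r between 0.687 and 0.879, whereas *Treml4* had r between -0.321 and 0.052 with these 4 genes and 0.568 with *Adgre4*. Once the library series was removed as well, r of *Treml4* with the other 5 genes lay between 0.468 and 0.645. Among *Ace*, *Eno3*, *Spn* and *Pglyrp1* it was then lower in every pair, from 0.299 (*Pglyrp1* and *Spn*) to 0.758 (*Ace* and *Spn*). *Treml4* was higher in the first series in all 6 groups, for example at means of 2519 and 1103 in wt Ly6Clo cells, and *Pglyrp1* was higher in the second series in all 6 groups. The genes whose pattern over the 24 libraries was most like that of each member were *Bcl2* for *Ace* (r = 0.969), *Napg* for *Treml4* (0.975), *Tcf7l2* for *Eno3* (0.992), *Pbxip1* for *Pglyrp1* (0.986), *Eno3* for *Spn* (0.992) and *Itgad* for *Adgre4* (0.973). The next in rank were *Fam49a* and *Setbp1*, *Sstr4* and *Itch*, *Spn* and *Fabp4*, *Prr13* and *Smpdl3b*, *Hfe* and *Tcf7l2*, and *Acss1* and *Slc12a2*, in the same order, with r from 0.961 to 0.992.

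Relatives of the members served as a comparison within each family, and 8 of 19 passed the filter on low values. *Ace3* did not exceed 7 in any library. Among the enolases, *Eno1*, the form found in most cells, was at 1697 to 3005 in wt and 2141 to 3251 in N2ΔMy Ly6Clo cells, and it was not called between subsets in wt cells (-0.51, adjusted p = 0.112), where *Eno3* rose 13-fold. Genes of skeletal muscle (*Acta1*, *Ckm*, *Myh4* and *Mb*), where *Eno3* is best known, summed to at most 19 in any library. *Adgre1*, which encodes F4/80, was higher in Ly6Clo than in Ly6Chi cells of both genotypes, by 0.99 on the log2 scale in wt mice (adjusted p = 3.2e-04), and the call in N2ΔMy mice had an adjusted p of 0.00105. In Ly6Clo cells it was at 5569 to 10202 in N2ΔMy and 3876 to 5977 in wt cells (0.58, adjusted p = 0.126), against the -0.10 of *Adgre4*. *Trem2*, a receptor of macrophages, was lower in Ly6Clo cells of wt mice, at a log2 fold change of -5.08 (adjusted p = 2.4e-06), opposite to *Treml4*, whereas *Trem3* was called higher (1.30, adjusted p = 0.01) and *Trem1* was at 0.60 (adjusted p = 0.151). *Selplg*, another mucin-type surface protein, was called in none of the 7 comparisons of groups. A gene on the opposite strand shares 295 exon bases with *Ace*, and its highest value was 16, against a mean of 11885 for *Ace*.

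The wider set of genes known from Ly6Clo monocytes had a similar picture. Of 30 genes, 29 were tested, and 26 were called higher in wt Ly6Clo than in wt Ly6Chi cells, against 11.9% of all genes. They too are known as genes of this subset. In Ly6Clo cells, 15 of the 29 were called lower in N2ΔMy than in wt mice, against 1.67% of all genes, or 19 with the block, against 3.45%, and 1 was called higher, with a median log2 fold change of -0.74, beside -0.75 for the 6 members and -0.003 for all genes. Among the genes called lower, the changes were largest for *Itgb3*, integrin beta 3 (-1.36 ± 0.12, adjusted p = 1.6e-04), and *Slc12a2*, an ion cotransporter (-1.23 ± 0.23, adjusted p = 0.00993). *Cd36*, a scavenger receptor, was the one that rose (1.83 ± 0.37, adjusted p = 0.0141). In Ly6Chi cells after IMQ treatment 0 of the 29 were called by limma without the block and 7 with it, of which 6 were lower, against 0.267% of all genes. With IMQ the list moved both ways in Ly6Chi cells, with 8 genes called higher and 3 lower in wt and 4 higher and 3 lower in N2ΔMy cells. Of all 11230 genes, 497 were called higher and 569 lower in wt, and 466 higher and 511 lower in N2ΔMy cells.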

How the data were processed

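RNA of sorted monocytes was sequenced with a stranded kit in 24 libraries. Per the labels and the study's methods, the authors used bcl2fastq, Trim Galore 0.4.4, STAR 2.5.3a (GRCm38, GENCODE) and DESeq2. The values deposited by the authors are normalised read counts rounded to whole numbers, which are handled here as a score and not as raw counts, so the count test planned for raw counts did not apply. The deposited columns with the authors' own fold changes, errors and p-values were not used.

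The 11230 of 53715 genes that reached a value of 50 in any library were tested on log2(value + 1) with limma 3.58.1 (trend, two-sided, R 4.3.3) on the libraries of each comparison, and Benjamini-Hochberg adjustment ran over all of them. Tables were handled in pandas 2.3.3 and numpy 2.4.6 (Python 3.11.15), intervals were taken from scipy 1.17.1, figures were drawn with matplotlib 3.10.9, and the scripts were checked on simulated data. Depth was inferred from the values. Libraries with the same replicate number were treated as pairs, since the correlation of their deviations was over 0.1 in every pair (lowest 0.16). A fit with the number as a block was therefore also run. Same-numbered libraries also share a library series, so these correlations cannot tell pairing from the series. Of 4 libraries, 2 correlated best with their own number in IMQ against Sham of each genotype and in the genotype comparison of Ly6Chi IMQ cells. In the other comparisons of groups it was 4 of 4. Promoters come from RefSeq tables (GRCm38.p6), in which all 6 members matched by symbol.

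Alternatives were the filter, the pseudocount, the scaling, the trend, the library series, 1 fit of all libraries, the block and leaving out each library. Genes named besides the members were set by rule: family relatives, the 3 genes most like each member over the libraries, the 2 most changed called genes in each direction among other Ly6Clo genes, and *Notch2*. Members and lists were chosen with earlier results of these data known. Comparisons share groups and are not independent. Some genes of the marker and family lists are not reported here.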

Additional observations from a re-analysis of the deposited data

Results flagged for a closer look

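Over the 6 genes and 6 groups, 1 library stood apart from the other 3 of its group by Dixon's test, where chance gives about 1 in 20 groups of 4. *Pglyrp1* was at 130 in wt Ly6Chi Sham replicate 2, against 208, 224 and 220 in the other replicates. Without this library the call of *Pglyrp1* between IMQ and Sham in wt Ly6Chi cells was not lost.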

How the results depend on the processing

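For the 6 genes, 1114 values under an alternative kept direction and call, 17 gained a call, 15 lost it and 30 changed sign without a call. The Ly6Chi values of *Treml4*, *Eno3* and *Pglyrp1* rest on fewer reads than those in Ly6Clo cells, and the effect of depth on them was not tested. The cause of the changes below was not tested.

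Members called in wt IMQ against Sham were 1 in library series 1 alone and 0 without the filter on low values (3 as reported), and 2 to 3 leaving out single libraries. In N2ΔMy mice they were 2 in series 1 alone, of which *Adgre4* was lower, 3 in series 2 alone and 0 without the filter (1 as reported). For the genotype in Ly6Clo cells they were 5 with the replicate block or with the series as a covariate (3 as reported), and 2 to 4 leaving out single libraries. For the genotype in Ly6Chi IMQ cells they were 1 in a fit of all 24 libraries, and 2 with the covariate or the block (0 as reported).

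Over all genes, calls for IMQ in wt cells were 592 in series 2 alone (1066 as reported), with 948 in series 1 alone and 795 without the filter, and in N2ΔMy cells 832 in series 1 alone, 813 in series 2 alone and 685 without the filter (977 as reported). Calls for the genotype in Ly6Clo cells were 180 in series 2 alone, 830 with the covariate, 215 without the filter and 939 with the block (537 as reported). For Ly6Chi IMQ cells they were 15 in the fit of 24 libraries, 1 in series 2 alone, 29 with the covariate, 0 without the trend, 8 without the filter, 54 with the block and 0 to 4 leaving out single libraries (3 as reported). For Ly6Chi Sham cells they were 7 without the filter, 1 to 2 leaving out single libraries, and 1 in series 1 or 2 alone, without the trend, with quantile or upper-quartile scaling, or with values under 1.1 set to 1.1 (2 as reported). For genotype and subset they were 18 in series 2 alone, 210 with the covariate, 271 with the block and 75 to 173 leaving out single libraries (116 as reported), and for genotype and treatment 1 without the filter (0 as reported).

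On the log2 scale, positions were 51.9% for *Ace*, 66.6% for *Treml4*, 77.6% for *Eno3*, 70.6% for *Pglyrp1* and 68.0% for *Spn*. Values that changed sign in 1 series were, for IMQ in wt cells, *Ace* at 0.43 and *Adgre4* at 0.06 in series 2, and in N2ΔMy cells *Treml4* at -0.22 in series 1 and *Adgre4* at 0.06 in series 2. For the genotype they were *Adgre4* at 0.06 in Ly6Clo cells in series 1, *Pglyrp1* at -0.02 in Sham cells in series 2, and *Adgre4* at -0.02 for genotype and subset in series 2.

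Leaving out single libraries, values spanned -0.24 to 0.15 for *Ace* with IMQ in wt cells, -0.19 to 0.03 for *Adgre4* by genotype in Ly6Clo cells, and -0.30 to 0.17 and -0.15 to 0.16 for *Pglyrp1* in IMQ and Sham Ly6Chi cells. For genotype and subset they spanned -0.06 to 0.35 for *Ace*, -0.25 to 0.26 for *Treml4*, -0.02 to 0.71 for *Eno3* and -0.19 to 0.07 for *Spn*, and for genotype and treatment -0.51 to 0.03 for *Treml4* and -0.34 to 0.13 for *Pglyrp1*.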
